A study of Ovis aries with 5 samples.

Results

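The 7 genes ACLY, ACACA, ACAS2, TM7SF2, NPC2, FABP5 and ABHD5 of lipid and sterol handling were followed in dendritic cells (DC) that drain from sheep skin in the lymph. The first 4 belong to synthesis and the other 3 to transport and breakdown. They are 7 of 819 genes that could be named on the array, and their 10 probes are all the probes of the array named for them, among 15008 distinct probes. The genes were chosen by their log2 ratios on these same arrays, namely their differences between the DC subsets and against total DC, so that their values are given as a description with no test.

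The cells compared were CD1b+CD26+ DC and CD1b+CD26- DC sorted from the lymph of 2 sheep, 10081 and 30066, with 1 array for each subset of each sheep. CD1b is a surface molecule that presents lipid antigens, CD26 is a surface protease, and both subsets carry CD1b. Each subset was labelled with Cy3 and hybridised with a common Cy5 sample, the total DC enriched from the lymph of other sheep, and 1 further array, the self-hybridisation, carried total DC in both dyes. According to the labelling protocol the common sample was RNA from a cultured cell line, whereas the sample labels call it total DC, the name used here. Age, sex and treatment of the sheep are not given in the sources used here. Because total DC came from other animals, the sort and the animal cannot be told apart in any comparison with total DC. The arrays of sheep 30066 shared a slide row with the self-hybridisation and those of sheep 10081 lay in another row, and an effect of slide row cannot be told apart from one of the animal.

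Cells build fatty acids and sterols from acetyl-CoA. ATP citrate lyase makes it from citrate, acetyl-CoA synthetases make it from acetate, acetyl-CoA carboxylase commits it to fatty acids, and a longer chain of enzymes that includes the sterol reductase TM7SF2 turns it into cholesterol. Cholesterol taken up from outside is freed in lysosomes and handed on by NPC2, fatty acids are carried through the cytosol by proteins such as FABP5, and stored triglyceride is broken down with the help of ABHD5. DC take up lipid with the material they sample, and their lipid content is known to bear on how they process antigen.

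Every value below rests on 60-base probes, and the probes that the results turn on are shown so that it is clear what was hybridised and how far paired probes are separate measurements. They are given 5′ to 3′ as printed in the scanner files, in lower case. Capitals mark the bases that the 2 probes of TM7SF2 or of ACAS2 have in common.
NPC2: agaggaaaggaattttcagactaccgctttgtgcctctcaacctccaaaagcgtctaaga
FABP5: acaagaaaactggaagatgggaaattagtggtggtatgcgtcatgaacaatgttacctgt
ABHD5: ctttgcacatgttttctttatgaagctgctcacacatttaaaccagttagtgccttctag
ACLY: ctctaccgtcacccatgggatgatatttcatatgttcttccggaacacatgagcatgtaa
TM7SF2, first probe: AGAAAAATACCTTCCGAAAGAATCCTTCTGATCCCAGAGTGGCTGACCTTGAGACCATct
TM7SF2, second probe: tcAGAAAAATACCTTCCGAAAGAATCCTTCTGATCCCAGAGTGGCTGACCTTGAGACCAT
ACAS2, first probe: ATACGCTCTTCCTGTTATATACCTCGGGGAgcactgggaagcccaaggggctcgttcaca
ACAS2, second probe: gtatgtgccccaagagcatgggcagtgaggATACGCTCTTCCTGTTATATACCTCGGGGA

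The pair of TM7SF2 probes shared 58 of 60 bases, as did the pair for ACACA, and the pair for ACAS2 shared 30 of 60. Paired probes therefore cover overlapping stretches of 1 transcript and are no separate replicates. Their log2 ratios differed on any array by at most 0.14 for TM7SF2, 0.36 for ACAS2 and 0.38 for ACACA. The GC content of the 10 probes lay between 38.3% and 55.0%, and the longest run that any of them shared with a probe of another gene, on either strand, was 12 to 16 bases. Where a gene had 2 probes, the values below are those of the first, which was the brighter.

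The log2 ratio of Cy3 over Cy5 states the level in a sorted subset relative to total DC, and a difference between subsets is a difference of such ratios. In RNA of a whole sorted population, fewer cells that hold a transcript and less transcript per cell cannot be told apart. Across all probes, limma called 0% of 13264 probes in the comparison of CD26+ with CD26- cells at a Benjamini-Hochberg adjusted p under 0.05 (746 at an unadjusted p under 0.05, smallest adjusted p 0.764). Of the 12934 probes with a value on all 4 subset arrays, 2.42% were at least 2-fold higher and 2.97% at least 2-fold lower in CD26+ than in CD26- cells in both sheep. Among the 7 lipid genes, ACLY was at least 2-fold higher and NPC2 and TM7SF2 at least 2-fold lower in both sheep, and nothing is read from these counts because the genes had been listed for such differences.

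**Figure D1:**
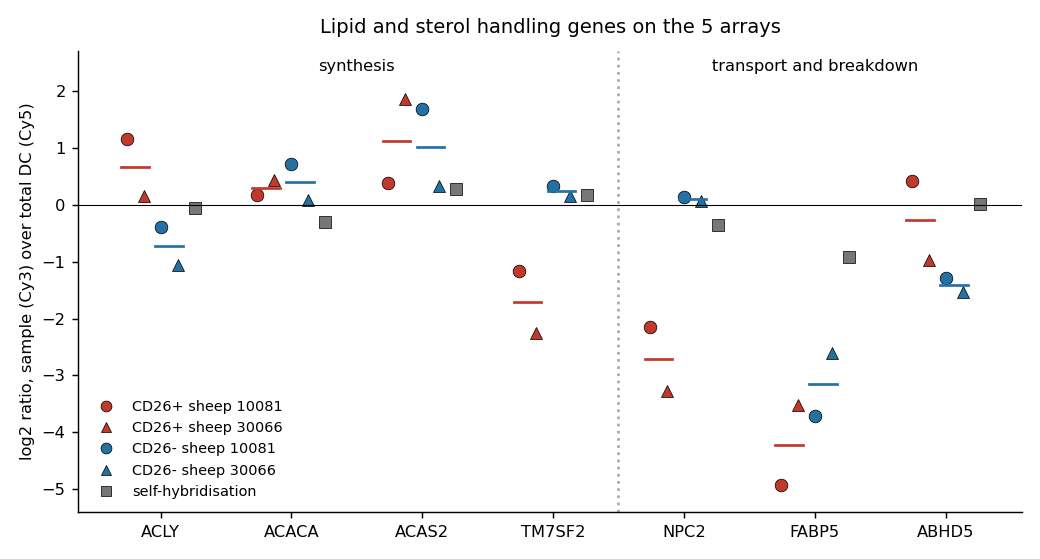
The log2 ratio of sample (Cy3) over total DC (Cy5) is plotted for each gene on each of the 5 arrays, with circles for sheep 10081, triangles for sheep 30066, squares for the self-hybridisation and bars for the mean of the 2 sheep. NPC2 and TM7SF2 lie below 0 in CD26+ cells and near 0 in CD26- cells, FABP5 lies far below 0 in both subsets, and ACAS2 is high in 1 sheep of each subset.

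Among the synthesis genes, ACLY was the one with a higher log2 ratio in CD26+ cells of both sheep. ACLY encodes ATP citrate lyase, which makes acetyl-CoA from citrate in the cytosol. Its log2 ratio was 1.16 and 0.16 in CD26+ cells of sheep 10081 and 30066, against -0.38 and -1.06 in CD26- cells and -0.06 on the self-hybridisation. Both CD26+ arrays lay above both CD26- arrays. The means were 0.66 ± 0.71 in CD26+ and -0.72 ± 0.48 in CD26- cells (SD, n = 2 each), a difference of 1.38 (SE 0.53) or 2.61-fold. The gap between the subsets was 1.55 in sheep 10081 and 1.22 in sheep 30066, so that the animals differed more in level than in this gap. Of all tested probes, 96.9% had a lower difference. This rank and the like ranks of differences below describe genes chosen by such values, and nothing is read from them.

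The ACLY spot on the CD26+ array of sheep 30066 stood in a dim patch of that array. Its Cy5 signal, which measures the same total DC each time, was 2641 units there, against 6151 to 7346 on the other 4 arrays, that is 0.39 of their mean. The 43 spots around it had a median Cy5 signal of 0.531 of their level on the other arrays. Their median log2 ratio was -0.04 on that array and -0.11 on the other subset arrays, so that both dyes of these spots were dim together. The uncorrected Cy3 signal of ACLY was 6613 and 1397 units on the CD26+ arrays and 2358 and 1484 units on the CD26- arrays. In sheep 30066 the uncorrected Cy3 signal was thus lower on the CD26+ array, the one with the dim patch, while the ratio was higher there. Since both dyes were dim in that patch, these uncorrected signals do not show which subset held more ACLY RNA. The share of the dim patch in the ACLY values was not tested. Without the CD26+ array of sheep 30066 the difference in ACLY was 1.89, and leaving out any 1 of the 4 subset arrays gave 0.88 to 1.89.

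TM7SF2 was the synthesis gene with lower levels in CD26+ cells. It encodes a sterol reductase of the late steps of cholesterol synthesis. Its log2 ratio was -1.17 and -2.25 in CD26+ cells, against 0.33 and 0.15 in CD26- cells and 0.18 on the self-hybridisation. The CD26+ arrays lay below the rest, and the self-hybridisation lay between the CD26- arrays. The means were -1.71 ± 0.76 in CD26+ and 0.24 ± 0.13 in CD26- cells (SD, n = 2 each), a difference of -1.95 (SE 0.50), which is 3.87-fold lower. Within sheep 10081 and 30066 the difference was -1.50 and -2.40. The second probe gave -1.94 (SE 0.54). Of tested probes, 1.27% had a lower difference. When the background model was fitted to every spot, those beside bright specks included, the difference was -1.29, and the Cy3 signal of TM7SF2 was as low as 82.2 units on a CD26+ array.

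ACAS2, a symbol used for an acetyl-CoA synthetase and taken here from the array file alone, took opposite directions in the 2 sheep. Its log2 ratio was 0.38 in CD26+ cells of sheep 10081 and 1.87 in those of sheep 30066, against 1.69 and 0.33 in CD26- cells of the same sheep, and 0.28 on the self-hybridisation. 1 array of each subset was thus high and the other near total DC, and the subsets overlapped. The subsets differed by -1.31 in sheep 10081 and by 1.53 in sheep 30066, and by 0.11 (SE 0.76) in the mean. The second probe gave -1.49 and 1.91. Opposite signs in the 2 sheep were found for 44% of the 12934 probes, and for 2.06% both differences were also at least 2-fold. The Cy3 signal of the first ACAS2 probe was 140 and 309 on the CD26+ arrays and 301 and 119 units on the CD26- arrays. Its Cy5 signal lay between 119 and 135 units on all 5, so that the variation of this probe lay in Cy3. The Cy5 signal of the second probe was 91.3 to 134 units. It was highest, at 134 and 126 units, on the arrays of CD26+ cells of sheep 30066 and CD26- cells of sheep 10081. There the Cy3 signal of that probe was highest too, at 319 and 284 units, against 66.1 to 83.9 units elsewhere.

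ACACA, the acetyl-CoA carboxylase that makes malonyl-CoA for fatty acid synthesis, was near the limit of measurement. It was well above background in Cy3 on 2 of 5 arrays, 1 of each subset, and in Cy5 on 0 of 5. Its log2 ratio was 0.17 and 0.44 in CD26+ cells, against 0.72 and 0.08 in CD26- cells and -0.31 on the self-hybridisation. The subsets overlapped, and their difference of -0.10 (SE 0.41) was smaller than the SD of either subset (0.19 and 0.45). The sheep again had opposite signs, -0.55 in sheep 10081 and 0.36 in sheep 30066. Since total DC was not well above background on any array and each subset on 1 of its 2, no fold against total DC is given.

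Across the 4 synthesis genes the median difference between CD26+ and CD26- cells was 0.01, against -0.01 over all 13264 tested probes. The median hides a wide range, from -1.95 for TM7SF2 to 1.38 for ACLY, and it was -0.93 in sheep 10081 and 0.79 in sheep 30066. In all, 1 gene was higher in both sheep, 1 lower in both and 2 had opposite signs.

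**Figure D2:**
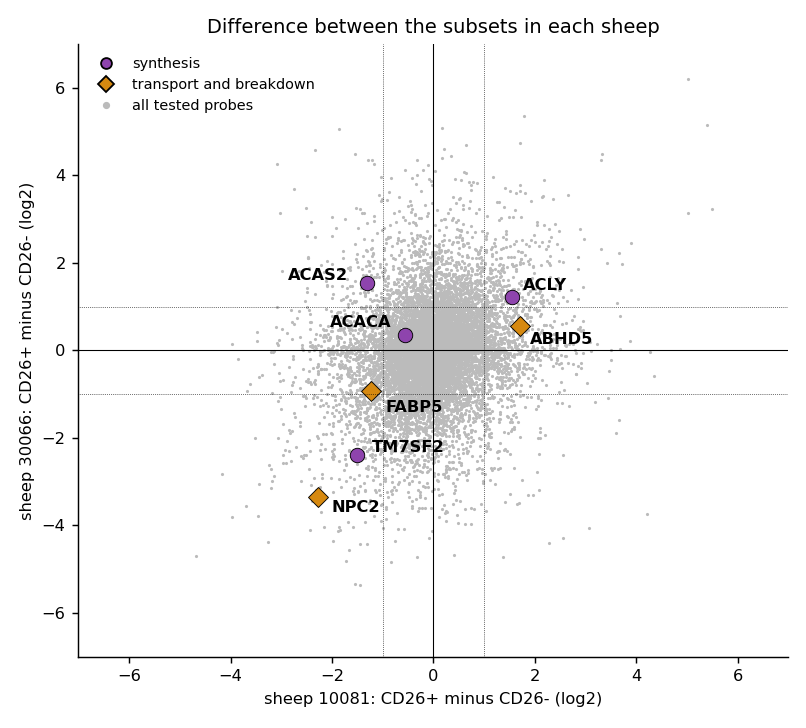
The difference between CD26+ and CD26- cells (log2) in sheep 30066 is plotted against that in sheep 10081 for all tested probes in grey and for the 7 genes in colour, with dotted lines at 2-fold. ACLY and ABHD5 lie in the upper right, NPC2, TM7SF2 and FABP5 in the lower left, and ACAS2 and ACACA in the upper left, where the sheep have opposite signs.

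NPC2 had the widest difference of the transport and breakdown genes. It encodes a soluble lysosomal protein that takes up free cholesterol and passes it to the membrane protein NPC1. On the arrays, NPC2 had a log2 ratio of -2.15 and -3.28 in CD26+ cells, against 0.13 and 0.07 in CD26- cells and -0.35 on the self-hybridisation. Both CD26+ arrays lay more than 1 log2 unit below the other 3 arrays, which were close together. The means were -2.72 ± 0.80 in CD26+ and 0.10 ± 0.04 in CD26- cells (SD, n = 2 each), and the difference of -2.82 (SE 0.51) is 7.05-fold lower in CD26+ cells. It was -2.28 in sheep 10081 and -3.35 in sheep 30066. The same order stood in the uncorrected Cy3 signal, with 10000.1 and 4392 units in CD26+ cells and 31042 and 35038 units in CD26- cells. The Cy5 signal was 124200 and 112134 units on the CD26+ arrays, 85025 and 99571 on the CD26- arrays and 103710 on the self-hybridisation. It was thus highest on the CD26+ arrays, which widens the difference of ratios, and its share in the difference was not tested. Of tested probes, 0.211% had a lower difference. Leaving out any 1 subset array gave -3.38 to -2.25.

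FABP5 was low in both subsets relative to total DC. FABP5, the epidermal type of fatty acid-binding protein, carries fatty acids in the cytosol. FABP5 had a log2 ratio of -4.93 and -3.53 in CD26+ cells, against -3.71 and -2.60 in CD26- cells and -0.92 on the self-hybridisation. The subsets overlapped, since CD26+ cells of sheep 30066 stood above CD26- cells of sheep 10081. Within each sheep the CD26+ value was the lower one, with a difference of -1.22 in sheep 10081 and -0.92 in sheep 30066. The mean difference was -1.07 (SE 0.69), or 2.10-fold lower in CD26+ cells, and it was -1.78 to -0.37 when any 1 subset array was left out. The ratio on the self-hybridisation, where both dyes carried the same RNA, was far from 0 for this probe, with only 1.25% of tested probes farther from 0.

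ABHD5 had the opposite sign. It encodes an activator of the triglyceride lipase PNPLA2 on lipid droplets. The log2 ratio of ABHD5 was 0.41 and -0.96 in CD26+ cells, against -1.29 and -1.53 in CD26- cells and 0.02 on the self-hybridisation. Both CD26+ arrays lay above both CD26- arrays, with the CD26+ array of sheep 10081 well above the other 3. The means were -0.28 ± 0.97 in CD26+ and -1.41 ± 0.17 in CD26- cells (SD, n = 2 each), a difference of 1.13 (SE 0.58), or 2.19-fold over CD26- arrays of which 1 of 2 was well above background. It was 1.70 in sheep 10081 and 0.57 in sheep 30066. The Cy3 signal was 272 and 92.0 units on the CD26+ arrays and 77.9 and 61.0 units on the CD26- arrays, and the last of these was not well above background. With the background model fitted to every spot the difference was 0.25, and leaving out any 1 subset array gave 0.45 to 1.82.

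For the 3 genes of transport and breakdown the median difference between CD26+ and CD26- cells was -1.07, with 1 gene higher and 2 lower in both sheep. It was -1.22 in sheep 10081 and -0.92 in sheep 30066. With 4 and 3 genes, the medians of synthesis and of transport and breakdown each rest on a single gene or a pair, and the difference between the classes was not tested.

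**Figure D3:**
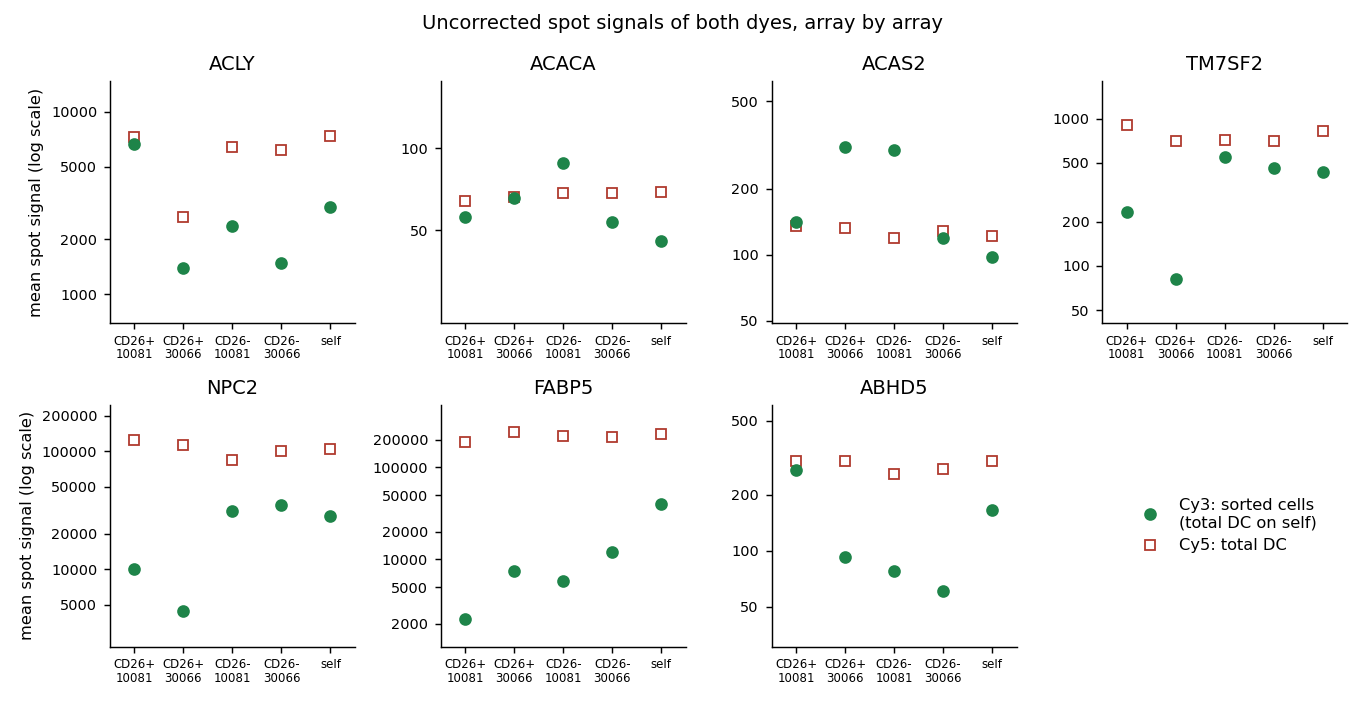
The uncorrected mean spot signal (arbitrary units, log scale) of Cy3 as filled circles and Cy5 as open squares is plotted for the 7 genes on the 5 arrays. ACLY has 1 array with a low Cy5 signal (CD26+ of sheep 30066), and the Cy3 signals of NPC2 and TM7SF2 are lowest on both CD26+ arrays.

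Each subset was also set against total DC, with the self-hybridisation subtracted. Limma called 0% of 13204 probes for CD26+ cells (1491 at an unadjusted p under 0.05, smallest adjusted p 0.304) and 0% for CD26- cells (1401, smallest adjusted p 0.351). In CD26+ cells 8.79% of all probes were at least 2-fold lower and 9.89% at least 2-fold higher than total DC in both sheep, and the lipid genes were TM7SF2, NPC2 and FABP5 on the lower side and none on the higher side. In CD26- cells 7.51% of probes were lower and 10.1% higher by this measure, and FABP5 and ABHD5 were the lipid genes on the lower side, with none on the higher side. These comparisons share the self-hybridisation, which is 1 array.

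FABP5 had the lowest mean of the lipid genes against total DC in both subsets. It stood at -4.01 and -2.60 in CD26+ cells of sheep 10081 and 30066 and at -2.78 and -1.68 in CD26- cells, with means of -3.30 (SE 0.85) and -2.23 (SE 0.85). With the scanner's processed signals these means were -3.97 and -2.98. Of all probes, 0.371% were lower than the mean of -3.30 in CD26+ cells and 1.58% lower than that of -2.23 in CD26- cells. NPC2 stood at -1.80 and -2.93 in CD26+ cells and at 0.49 and 0.42 in CD26- cells, with means of -2.36 (SE 0.62) and 0.45 (SE 0.62). The subsets of NPC2 thus lay on either side of total DC, CD26+ cells far below and CD26- cells slightly above. TM7SF2 stood at -1.35 and -2.43 in CD26+ cells and at 0.15 and -0.03 in CD26- cells. The CD26+ mean was -1.89 (SE 0.61), and the CD26- values lay on either side of total DC with a mean of 0.06 (SE 0.61).

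ABHD5 stood at 0.40 and -0.98 in CD26+ cells and at -1.30 and -1.54 in CD26- cells, so that the CD26+ arrays lay on either side of total DC and both CD26- arrays below it, the CD26- array of sheep 30066 not being well above background. With the background model fitted to every spot the CD26- mean of -1.42 (SE 0.71) was -0.29. ACLY stood at 1.22 and 0.22 in CD26+ cells and at -0.33 and -1.0 in CD26- cells, a spread around total DC with means of 0.72 (SE 0.65) and -0.66 (SE 0.65). ACAS2 stood at 0.10 and 1.58 in CD26+ cells and at 1.41 and 0.05 in CD26- cells. 1 array of each subset was close to total DC and the other more than 2-fold above it.

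Genes of the same pathways were looked up in 5 lists of sterol synthesis, fatty acid synthesis, lipid transport, droplets and breakdown, and lipid-sensing receptors, which were drawn up with earlier results of these arrays known. Beside the 7 genes these lists name 118 symbols, with older and newer names of a gene counted apart. Of these, 19 had a named probe and 17 were tested. Of the 17, 0 passed the test between the subsets or of either subset against total DC. Between CD26+ and CD26- cells 5 were higher in both sheep, 6 lower in both and 6 had opposite signs, where all 12934 probes split as 27.6%, 28.4% and 44%, shares close to those of the 17. The 17 had a median difference of 0.08, against -0.01 over all tested probes. NPC1, PNPLA2 and FASN, the direct partners of NPC2, ABHD5 and ACACA, are not analysed here.

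PPARG was the one gene of these 17 with a difference of at least 2-fold and of the same sign in each sheep. It encodes a nuclear receptor that senses fatty acids and drives genes of lipid uptake and storage. PPARG had a log2 ratio of 0.74 and -0.62 in CD26+ cells, against 1.94 and 0.89 in CD26- cells and -0.16 on the self-hybridisation. Both CD26+ arrays lay below both CD26- arrays. The difference was -1.35 (SE 0.67), with -1.20 in sheep 10081 and -1.50 in sheep 30066, and it did not pass the test over all probes. By the same 2-fold measure, 2.42% of the 12934 probes were higher and 2.97% lower in both sheep. Nothing is read from 1 gene of 17.

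Other genes of the lists are named here after their values were seen. SCD, the desaturase that makes monounsaturated fatty acids, had a log2 ratio of -0.38 and 2.30 in CD26+ cells, against 0.60 and -0.49 in CD26- cells and -0.05 on the self-hybridisation. Like ACAS2 and ACACA, SCD had opposite signs in the sheep, -0.98 in sheep 10081 and 2.79 in sheep 30066, as 44% of all 12934 probes had. SQLE, the squalene epoxidase of sterol synthesis, stood at -1.37 and -1.64 in CD26+ cells, against -3.41 and -1.69 in CD26- cells. It was lowest in CD26- cells of sheep 10081 and alike in the subsets of sheep 30066, with differences of 2.04 and 0.04, and its pattern therefore did not follow that of TM7SF2. A second SQLE probe stood at -1.46 and -2.07 in CD26+ cells, against -3.38 and -1.65 in CD26- cells. Its sign in sheep 30066 was thus the opposite, and SQLE counts above as higher in both sheep by the brighter probe alone. The counts of CPT1A and PLIN5 rest on the brighter probe as well. CPT1A counts as lower in both sheep, with a mean difference of -0.06, but its second probe was higher in both, at 0.14. PLIN5 counts as higher in both sheep, but its second probe had opposite signs. Within the lysosome, PSAP, the precursor of the saposins that help to break down sphingolipids, differed by -0.51 (SE 0.34). Its log2 ratio was 0.89 and 0.65 in CD26+ cells and 1.30 and 1.27 in CD26- cells, all above total DC, where NPC2 in CD26+ cells was below it. The droplet coat protein PLIN2 differed by 0.08 (SE 0.37). PPARA, of the same receptor list as PPARG, went the other way, by 2.03 in sheep 10081 and 0.36 in sheep 30066. DGAT1, of the list of droplets and breakdown, differed by -0.34 and -1.87.

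**Figure D4:**
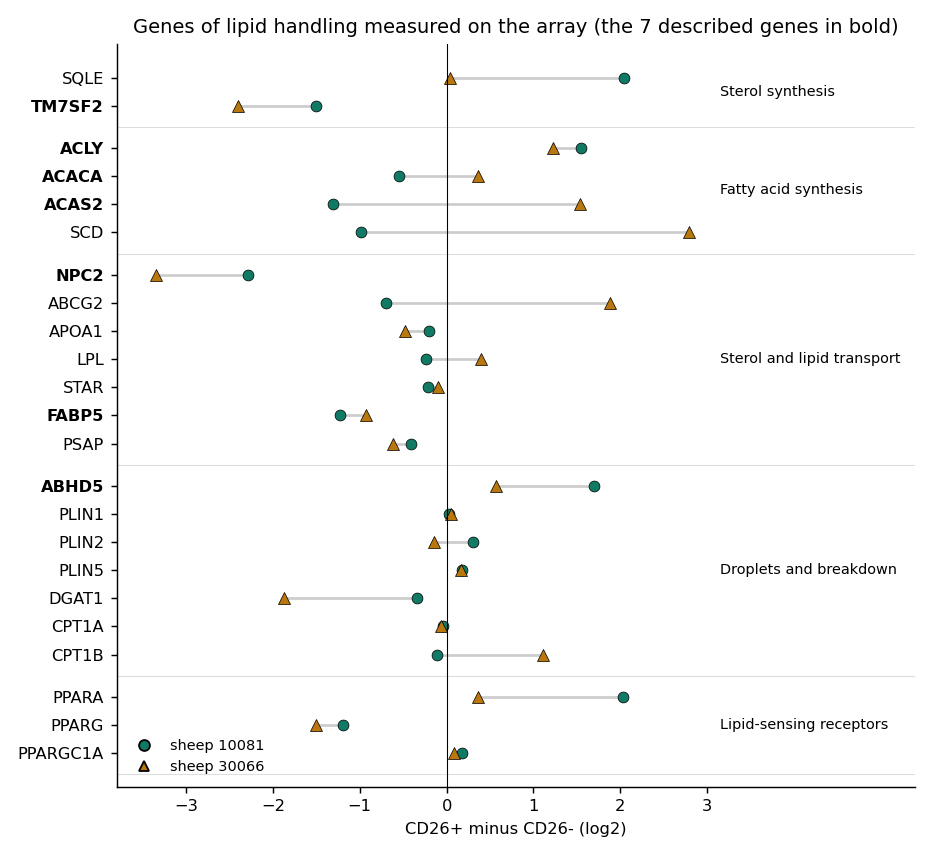
The difference between CD26+ and CD26- cells (log2) is plotted for the tested genes of the 5 lipid lists except 1, with a circle for sheep 10081 and a triangle for sheep 30066 and the 7 described genes in bold. NPC2 and TM7SF2 lie farthest to the left in both sheep, PPARG is left of 0 in both, and SCD and ACAS2 have the sheep on opposite sides of 0.

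The named genes whose log2 ratios over the 5 arrays lay nearest to each of the 7 were found by the root mean square difference among 676 genes measured on every array. For NPC2 the nearest gene was TM7SF2, at 0.69, ahead of CTNNBL1 at 0.75 and ATOX1 at 0.80. For TM7SF2 they were FLT3LG at 0.49, C3 at 0.51 and BCL2L1 at 0.52, for FABP5 CXCL1 at 0.61 and NRG1 and RPS12 at 0.86, and for ABHD5 the genes listed as VHNF1 at 0.42, GABPA at 0.50 and PGE2R-EP4 at 0.52. ACLY lay nearest to SMAD1 at 0.40, FGF2 at 0.43 and CIB1 at 0.44. ACAS2 had the gene listed as PLGF at 0.16, then INSL3 at 0.35 and PTGS1 at 0.36, all with the same pair of high arrays. ACACA had IL18 at 0.16 and BRS3 and MYD88 at 0.21. FABP5 and NPC2 had no gene within 0.60 of them.

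Of the whole set, 81.1% to 89.5% of probes were well above background in Cy3 on each array, and across probes the Cy5 signal of each array correlated with that of each other array at r = 0.987 or more. No spot of the 7 genes was saturated. Of 22 DC markers 5 had a named probe, and CD1D, CD86, CD80 and CD40 were well above background on all 5 arrays, while the probe named CD1B was too dim to be tested. Of 15 markers of monocytes and macrophages, CD14 and LYZ were measured. The log2 ratio of CD14 was -1.55 and -1.48 in CD26+ cells, against 0.32 and -1.16 in CD26- cells, and that of LYZ was -0.50 and 0.68 against -0.40 and 0.25. CD14 thus differed by -1.87 in sheep 10081 and -0.32 in sheep 30066, beside -2.28 and -3.35 for NPC2. Of 11 T cell markers 6 were tested, with 3 higher and 2 lower in CD26+ cells of both sheep. CD3D, a part of the T cell receptor complex, stood at 3.18 and 0.10 in CD26+ cells, against 4.11 and 1.41 in CD26- cells. In the other direction, CD5 stood at 1.82 and 2.12 in CD26+ cells, against 0.99 and -0.18 in CD26- cells. CD247, the zeta chain of the same complex, stood at -1.44 and -0.30 in CD26+ cells, against -2.53 and -1.92 in CD26- cells. T cell markers thus had no common direction between the subsets. Of 6 NK cell markers GNLY alone was measured, by 4 probes. Its brightest probe stood at -1.48 and -1.82 in CD26+ cells, against -4.89 in CD26- cells of sheep 30066, with the spot of the CD26- array of sheep 10081 left out, and the fitted difference was 3.24 (SE 0.49). The other 3 probes of GNLY, measured on all arrays, differed by 0.78 to 1.11, with -0.45 to -0.41 in sheep 10081 and 1.99 to 2.67 in sheep 30066. The part of such cells in the lipid gene values was not tested. The adipocyte markers LEP, PLIN1 and LPL differed between the subsets by 0.17, 0.04 and 0.08, and none of the 6 B cell markers had a named probe.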

How the data were processed

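Per the file headers, Feature Extraction 9.5.3.1 read the arrays, and its deposited output gives raw linear intensity and local background for each spot and dye. The same deposited output holds a log10 ratio of processed signals, per the file headers. The deposited value table holds log2 ratios, which equalled the negative of that log ratio divided by log10 of 2 to within 5e-10. Its direction is therefore Cy3 over Cy5 and its scale log2. Column medians of -0.068 to 0.015 were found, and whether the authors centred the values is not stated. Per the labels, RNA was amplified, sorted cells were labelled with Cy3 and the common sample with Cy5, with no dye swap.

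Mean signals were corrected with normexp (offset 50) and normalised within each array by loess with 536 control spots at weight 0, giving log2 of Cy3 over Cy5 (limma 3.58.1, R 4.3.3). Spots with local background over 5 times the median of their array (0 to 9 per array) and outlier spots (49 to 157 per array) were left out. Bright-background spots also stayed out of the normexp fit, a choice made after results had been seen. Control spots take no further part. A probe was tested if its Cy3 signal was well above background on 2 or more of the 5 arrays (13264 of 15008, with 1744 too dim), and the number of arrays limits precision. A total of 1411 probes of 819 genes, 689 of them tested, were named from the files and from RefSeq sheep genes (assembly ARS-UI_Ramb_v3.0, names only). Genes without a name in either are not described. The brightest tested probe represents a gene.

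Group means of CD26+, CD26- and self-hybridisation arrays were fitted with lmFit and eBayes (2 residual and 2.36 prior degrees of freedom), with Benjamini-Hochberg adjustment over all tested probes. SEs are from this fit, and SDs are over 2 sheep. The subsets come from the same sheep, per the labels, and the deviations of same-sheep arrays from the subset means correlated with r = 0.33 across probes. The genes, the lists and the tests were chosen with earlier results of these data known. The genes named are the 7, list genes with a difference of at least 2-fold and equal sign in each sheep, direct partners of the 7, and the 3 nearest genes of each. Alternatives were other background corrections, Aquantile, no filter on dim probes, all probes of a gene, sheep as a block and each subset array left out. 1 gene of the lists enters the counts and is not reported here. The computation was tested on simulated data in which the changed probes were bright and the sheep did not differ. It therefore does not cover dim probes or sheep that differ.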

Additional observations from a re-analysis of the deposited data

Results flagged for a closer look

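The Cy5 signal of the ACLY probe was low on 1 of the 5 arrays. It was 2641 units on the CD26+ array of sheep 30066, and the next lowest was 6151 and the highest 7346 units on the arrays that carried the same total DC. The gap to the nearest array made up 0.746 of the whole range, above the 95% critical value of 0.71 for 5 samples. Of the 10 probes of the lipid genes this was the one past that value, and chance flags about 1 in 20 such groups. The median Cy5 signal of the 43 surrounding spots was 0.531 of that on the other arrays.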

How the results depend on the processing

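For the 3 comparisons 0 probes were called under every alternative run, with a smallest adjusted p of 0.243, and leaving out 1 array did not alter this. With sheep as a replicate block, the paired fit of CD26+ against CD26- cells called 0 of 13262 probes (1126 at an unadjusted p under 0.05, smallest adjusted p 0.577). Of 197 alternative values for 19 differences of the single genes, 81 could not move by construction (the block, Aquantile, no dim filter, all probes of a gene with 1 probe, and an array outside the comparison left out). Of the other 116, 93 moved by less than the spread between sheep, 13 by more and 10 changed sign. Against total DC, this spread was the SD over the arrays of the subset. Leaving out an array of that subset shifts the mean by less than this SD by construction. Such values could change sign but could not be among the 13, so the count of 93 includes values that do not show stability.

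The median of the synthesis genes, near 0, was -0.00041 with the mean of all probes of a gene and -0.49 to 0.51 without 1 array, at -0.43 without the CD26+ and -0.49 without the CD26- array of sheep 30066. That of transport and breakdown was -1.78 to -0.37 without 1 array. ACACA turned to 0.021 with the background model fitted to every spot and to 0.017 with the scanner's processed signals. Without 1 array ACACA ranged from -0.42 to 0.23, turning sign without either array of sheep 10081 (0.04 without CD26+). ACAS2 ranged from -0.63 to 0.86, turning to -0.63 and -0.57 without the CD26+ or CD26- array of sheep 30066. Against total DC, ABHD5 in CD26+ cells ranged from -0.98 to 0.40. TM7SF2 in CD26- cells ranged from -0.027 to 0.15 and was -0.035 with the model on every spot and -0.025 with processed signals. The cause was not tested. Dim signals limit ACACA and ABHD5, which were not well above background on every array. ACAS2 and TM7SF2 were well above it on all 5 arrays, but their Cy3 signals fell to 66.1 and 76.4 units, which limits them too. The number of sheep, 2, limits every value.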
